A study of Mus musculus with 6 samples.

Results

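The genes described here are 35 genes of the G2 phase and of mitosis, taken as a fixed list of mitotic cyclins and kinases, spindle and kinetochore proteins, motor proteins and regulators. They were followed across 6 single-colour Affymetrix mouse arrays of messenger RNA from ovarian surface epithelial (OSE) tumour cells of the mouse, derived from the thin epithelium on the outside of the ovary. Each gene was read from the probe set that names it alone and has the highest mean log2 signal. Of the 35 genes 34 were measured in this way, among 18194 genes in all, and all 34 passed the filter on dim genes. Ccnb1, which encodes cyclin B1, was not analysed here. A signal below is the deposited linear intensity of a probe set, and it can be compared between arrays but not between genes.

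The arrays fall into 3 groups of 2. The homozygous cells carry only the R172H mutant of p53 and came from animals of 4 weeks. The heterozygous cells express wild-type p53 together with R172H and came from animals of 9 weeks (array 1) and 12 weeks (array 2). The wild-type cells express wild-type p53 and both came from animals of 9 weeks. The source names of the homozygous samples give Trp63 where the titles give the p53 gene, and the groups follow the titles. The titles of all 6 samples begin with P/K, which the labels do not spell out, and all animals had a mixed strain background. All cells were freed with trypsin, plated in medium with serum and collected without passage. Homozygosity and the younger age cannot be told apart in this design. The different ages show that the heterozygous arrays came from different animals. For the homozygous and the wild-type pair no label says so, and p-values measure the spread between these arrays, part of which may be technical. The comparison of p53 states is the stated purpose of the series.

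As background, most of these genes are silent in resting and G1 cells and are transcribed together late in the cell cycle. In G1, a complex of RB-like proteins and the MuvB core (DREAM) holds them down. Later the same core, with B-MYB and FOXM1, switches them on. Many of their promoters carry a CHR element (cell cycle genes homology region), the landing site of MuvB, beside CCAAT boxes bound by NF-Y. p53, a transcription factor activated by damage, induces the CDK inhibitor p21, which favours the DREAM state, so these genes are known to fall when p53 is active. The level of such transcripts in a culture therefore also reads how many of its cells are dividing.

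The promoters of the list share these elements, as RefSeq sequences of build GRCm38.p6 show. Promoters of 29 of the 35 genes were matched by symbol, each from 250 bases before to 50 bases after the annotated start, and Ccnb1 is among them. A CHR element, searched as TTTGAA or TTTAAA on both strands, was found in 24 of the 29, or 82.8%, against 27.8% of 27025 promoters of all genes. A CCAAT box, searched as CCAAT on both strands, was found in 23, or 79.3%, against 37.9%. Both kinds occurred in 21 promoters, or 72.4%, against 10.9%, and a CHR and a CCAAT match can share an end base. TTTAAA reads the same on both strands. A CHR match within 50 bases of the start was present in 20, or 69.0%, against 8.24%. Of the promoters of DNA replication genes 24.2% held a CHR match and 57.6% a CCAAT box. A match describes letters in a window and is not evidence of binding.

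Stretches of 160 bases, from 130 before to 30 after the start, are shown for 9 genes, 5′ to 3′ on the gene's own strand, with CHR and CCAAT matches in capitals. Top2a, Aurka, Ube2c and Bub1 are among the genes that stood highest in homozygous cells relative to all others, Plk1, Cdk1 and Ccnb2 are core mitotic regulators, and Cdc20 and Psrc1 are among the genes that did not stand above the other arrays.
Top2a (chr11:99024160-99024319, minus strand): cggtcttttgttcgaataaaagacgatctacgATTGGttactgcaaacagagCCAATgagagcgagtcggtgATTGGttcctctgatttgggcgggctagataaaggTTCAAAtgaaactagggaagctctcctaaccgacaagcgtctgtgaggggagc
Aurka (chr2:172370541-172370700, minus strand): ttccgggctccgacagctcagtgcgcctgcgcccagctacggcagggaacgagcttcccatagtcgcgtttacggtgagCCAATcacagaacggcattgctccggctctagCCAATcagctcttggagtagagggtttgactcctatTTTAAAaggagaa
Ube2c (chr2:164769799-164769958, plus strand): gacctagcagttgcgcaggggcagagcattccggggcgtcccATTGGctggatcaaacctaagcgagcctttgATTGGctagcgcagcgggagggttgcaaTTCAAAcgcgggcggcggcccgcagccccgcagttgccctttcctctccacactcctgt
Bub1 (chr2:127831830-127831989, minus strand): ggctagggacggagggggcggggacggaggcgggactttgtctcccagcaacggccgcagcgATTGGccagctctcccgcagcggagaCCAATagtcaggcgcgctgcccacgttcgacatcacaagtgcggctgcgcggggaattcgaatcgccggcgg
Plk1 (chr7:122159305-122159464, plus strand): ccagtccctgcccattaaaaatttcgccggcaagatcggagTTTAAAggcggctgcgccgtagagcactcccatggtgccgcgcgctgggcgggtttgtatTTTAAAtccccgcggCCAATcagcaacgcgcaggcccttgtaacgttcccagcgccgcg
Cdk1 (chr10:69352883-69353042, minus strand): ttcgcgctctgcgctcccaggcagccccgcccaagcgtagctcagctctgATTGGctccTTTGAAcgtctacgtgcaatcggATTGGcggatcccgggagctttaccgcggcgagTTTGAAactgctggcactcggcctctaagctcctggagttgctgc
Ccnb2 (chr9:70421525-70421684, minus strand): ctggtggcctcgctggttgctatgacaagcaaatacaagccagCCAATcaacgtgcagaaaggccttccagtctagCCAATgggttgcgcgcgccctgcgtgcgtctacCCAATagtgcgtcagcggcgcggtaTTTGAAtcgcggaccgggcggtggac
Cdc20 (chr4:118437314-118437473, minus strand): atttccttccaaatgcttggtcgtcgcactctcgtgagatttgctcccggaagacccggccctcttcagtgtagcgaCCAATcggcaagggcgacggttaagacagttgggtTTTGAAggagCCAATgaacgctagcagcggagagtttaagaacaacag
Psrc1 (chr3:108383674-108383833, plus strand): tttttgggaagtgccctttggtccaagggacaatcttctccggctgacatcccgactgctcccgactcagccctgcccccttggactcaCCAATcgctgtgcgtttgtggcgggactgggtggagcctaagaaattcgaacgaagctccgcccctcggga
Bub1 and Psrc1 had CCAAT boxes and no match to TTTGAA or TTTAAA in these stretches, although their signals behaved differently. The similar TTCGAA, present in both stretches, was not searched, so a CHR element of another form may have been missed. Ccnb2 held 3 CCAAT boxes upstream of the start and its CHR match just after it. Melk, Nuf2 and Nusap1 had neither motif in the 300 bases.

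**Figure D1:**
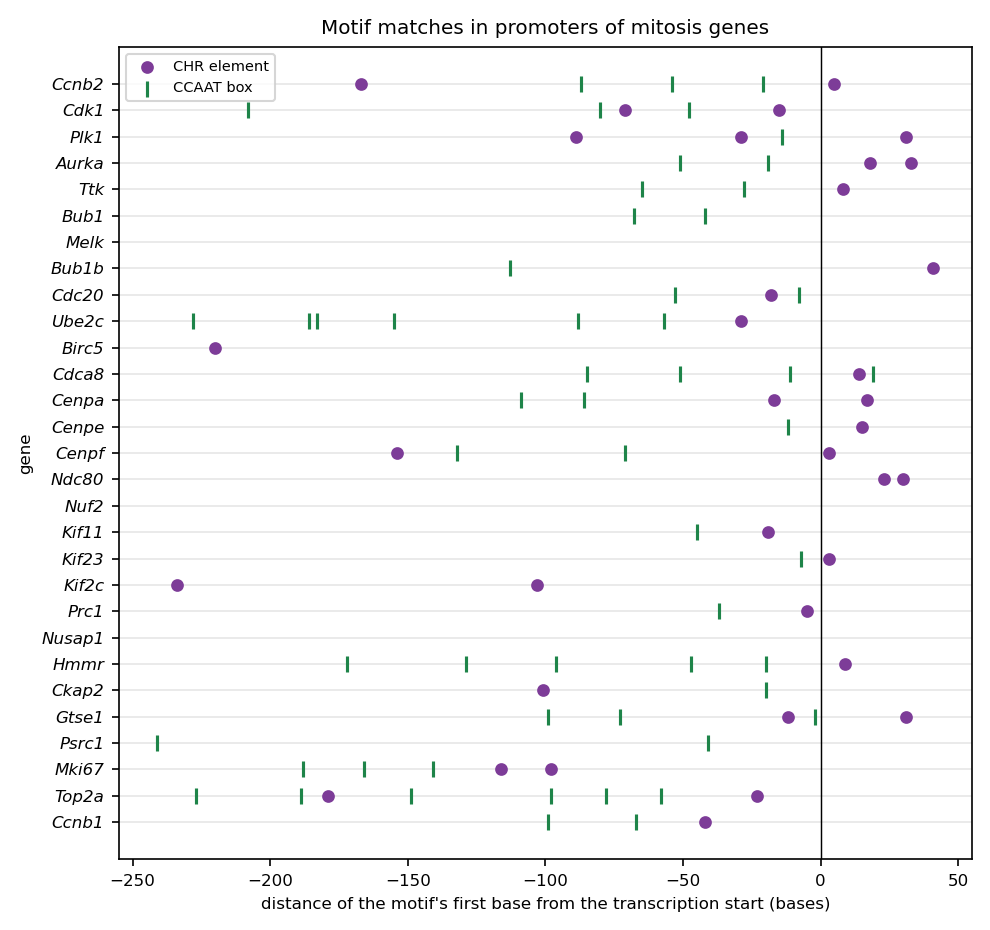
Positions of CHR elements (circles) and CCAAT boxes (bars) in 29 promoters, with distance from the transcription start in bases on the horizontal axis and 1 gene per row. CHR matches of 20 promoters lie within 50 bases of the start, and Melk, Nuf2 and Nusap1 show no match.

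Facts of the series that bear on these genes are few. Every array had been scaled to the same trimmed mean of 500.0, and array medians lay between 41.1 and 60.6. A background level of 24.5, the highest value of the bacterial Trpn control probe sets, was exceeded by all 34 genes in all 6 arrays. Of the surface epithelium markers, Upk3b was at 6198 and 18766 in the homozygous, 25169 and 27977 in the heterozygous and 27255 and 30939.9 in the wild-type arrays. Epcam was at 27.6 and 22.2, at or near background, in the homozygous arrays, against 1033 and 555 in the heterozygous and 857 and 1242 in the wild-type arrays. Aldh1a2, another marker of this epithelium, was at 1.06 in homozygous array 1 and at 1979 in homozygous array 2, against 19538 and 17988 in the heterozygous and 17461 and 18974 in the wild-type arrays. Of the 12 markers of this epithelium, 11 had a negative and 1 a positive log2 fold change against wild-type cells. The positive one was Krt18, at 25436 and 5623 in the homozygous, 11707 and 6729 in the heterozygous and 6247 and 12233 in the wild-type arrays. Markers of the labelled cell type were thus present in the heterozygous and wild-type arrays, and most but not all were lower on average in the homozygous ones.

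Different levels of proliferation genes were seen within both the heterozygous and the wild-type group. Mki67, the proliferation marker, had signals of 5271 and 6747 in the homozygous, 4352 and 966 in the heterozygous and 1246 and 4031 in the wild-type arrays. Heterozygous array 1 and wild-type array 2 were high, heterozygous array 2 and wild-type array 1 low, and both homozygous arrays higher than all of these. Wild-type array 2 exceeded array 1 for 34 of 34 genes, against 47.5% of all 10916 tested genes, and heterozygous array 1 exceeded array 2 for 33, against 43.1%. The same order of the 4 heterozygous and wild-type arrays held for 33 of the 34 genes, the exception being Foxm1, against 19.9% of all tested genes. Heterozygous array 2 was the lowest of the 6 arrays for 29 genes and wild-type array 1 for the other 5. A homozygous array was the highest for 31 genes and wild-type array 2 for the remaining 3.

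**Figure D2:**
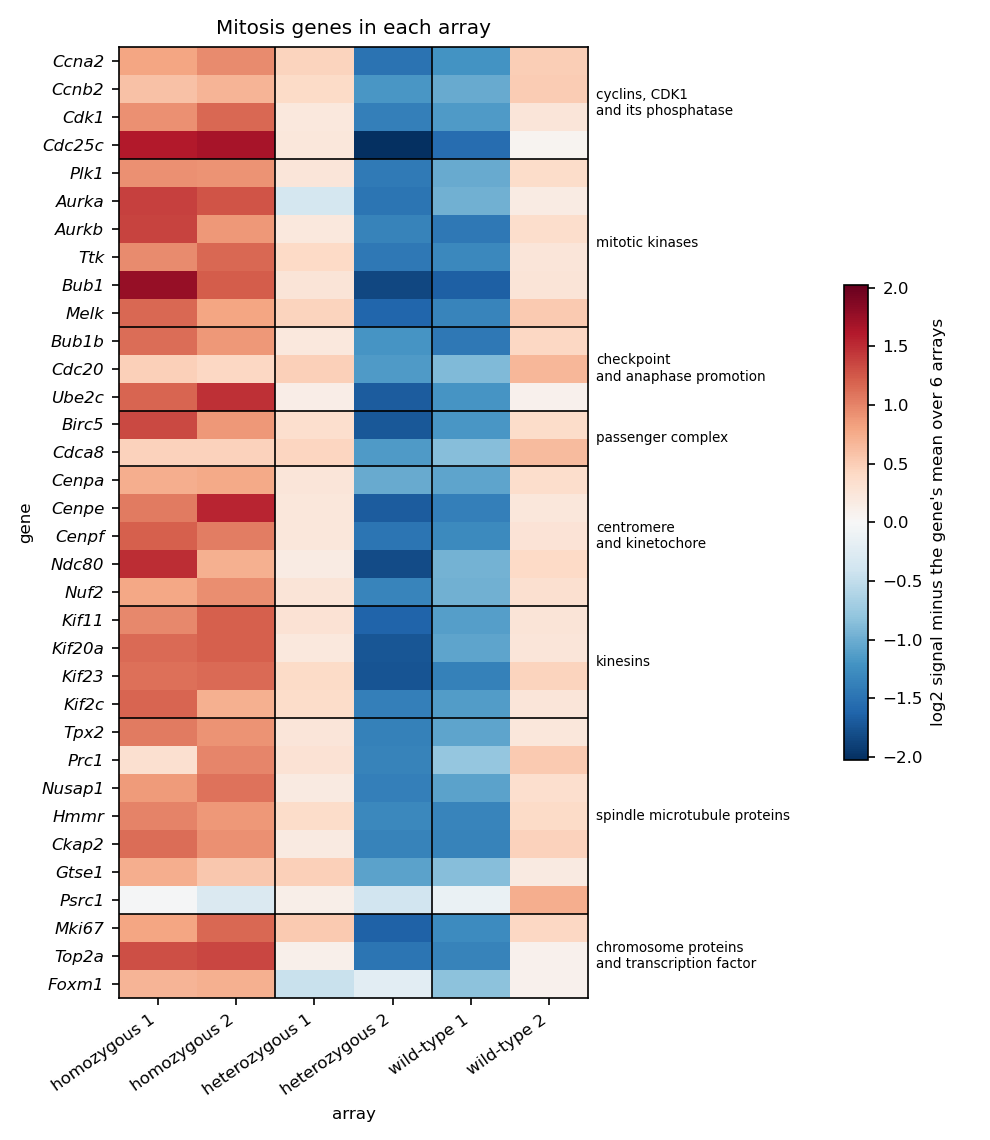
Log2 signal of each of 34 genes (rows, grouped by role) in each of 6 arrays (columns) minus the gene's own mean over the 6 arrays. Both homozygous columns and, more weakly, heterozygous 1 and wild-type 2 are above the mean, and heterozygous 2 and wild-type 1 are below it for nearly every gene.

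The spread within a group was larger than for most genes on the array, except in the homozygous cells. The median gene of the list differed 3.18-fold between the heterozygous arrays and 2.77-fold between the wild-type arrays, but 1.15-fold between the homozygous arrays. On the log2 scale these are absolute differences of 1.67, 1.47 and 0.20, against medians over all tested genes of 0.29, 0.30 and 0.42. A difference of at least 2-fold was seen for 32 genes in the heterozygous pair, 32 in the wild-type pair and 0 in the homozygous pair, against 7.04%, 8.71% and 21.0% of all tested genes. The homozygous pair was thus the most variable pair for the array as a whole and the closest pair for the mitosis genes. The heterozygous arrays also differ in the age of the animals, and the wild-type arrays do not.

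Partitioned over the 6 arrays, a median of 52.6% of a mitosis gene's sum of squares lay between the groups, 26.5% within the heterozygous pair, 19.2% within the wild-type pair and 0.367% within the homozygous pair. Over all tested genes the medians were 61.0%, 4.34%, 4.87% and 11.1%. Spread between arrays of a group therefore took up a large share of the variation of these genes, and it came from the heterozygous and wild-type cells.

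Homozygous cells had higher mitosis signals than wild-type cells on average, but no gene of the list passed the test. Log2 fold changes, homozygous minus wild-type, were positive for 33 of 34 genes, against 45.4% of all tested genes, with a median of 1.42 against -0.092 over all tested genes. By limma with Benjamini-Hochberg adjustment over 10916 genes, 0 of 34 were called higher and 0 lower at an adjusted p under 0.05. Of all tested genes 0.412% were called higher and 2.25% lower (2.67% in all), which for 34 genes is a share of under 1 gene. An unadjusted p under 0.05 was reached by 5 of 34 genes, or 14.7%, a smaller share than the 28.9% of all tested genes, and the lowest adjusted p was 0.118, that of Aurka (n = 2 arrays per group). The group difference was larger than the difference between the wild-type arrays for 15 of 34 genes, and larger than that between the heterozygous arrays for 8. The shares of all tested genes for these counts were not computed. Without wild-type array 1, the low one, the median was 0.66, and without wild-type array 2 it was 2.22. In bulk RNA, more dividing cells and more mitotic RNA per cell cannot be told apart.

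Against heterozygous cells, mitosis signals of homozygous cells also lay higher on average and no gene passed the test. Log2 fold changes, homozygous minus heterozygous, were positive for 33 of 34 genes, against 45.7% of all, with a median of 1.58 against -0.083 over all tested genes. Limma called 0 higher and 0 lower, against 0.87% and 3.22% of all genes (4.09% in all). Among the 34 were 6 at an unadjusted p under 0.05, or 17.6%, also a smaller share than the 30.6% of all tested genes, and a lowest adjusted p of 0.0763, again that of Aurka. The group difference exceeded the difference between the heterozygous arrays for 13 of 34 genes, a count for which the share of all tested genes was not computed. Without heterozygous array 2, the low one, the median was 0.75, and without array 1 it was 2.40. The 2 comparisons share the homozygous arrays and are not independent of each other.

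Between heterozygous and wild-type cells the spread within the pairs exceeded the difference of the groups for every gene of the list. The share of all tested genes for which it did so was not computed. The median log2 fold change, heterozygous minus wild-type, was -0.15 against 0.0046 over all tested genes, with 5 genes positive and 29 negative, against 50.8% of all tested genes positive. Limma called 0 higher and 0 lower, as it did of all genes (0.0%), and 0 reached an unadjusted p under 0.05, against 0.65% of all tested genes. The sign of the median depended on which array was left out, with 0.70 without heterozygous array 2 and -1.02 without heterozygous array 1. Leaving out wild-type array 1 gave -0.93, and leaving out wild-type array 2 gave 0.60. Across these groups the closest arrays were heterozygous 1 and wild-type 2, whose median absolute difference over the 34 genes was 0.12, and heterozygous 2 and wild-type 1, with 0.28. Over all tested genes these medians were 0.15 and 0.31, so this closeness was not particular to the mitosis genes.

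**Figure D3:**
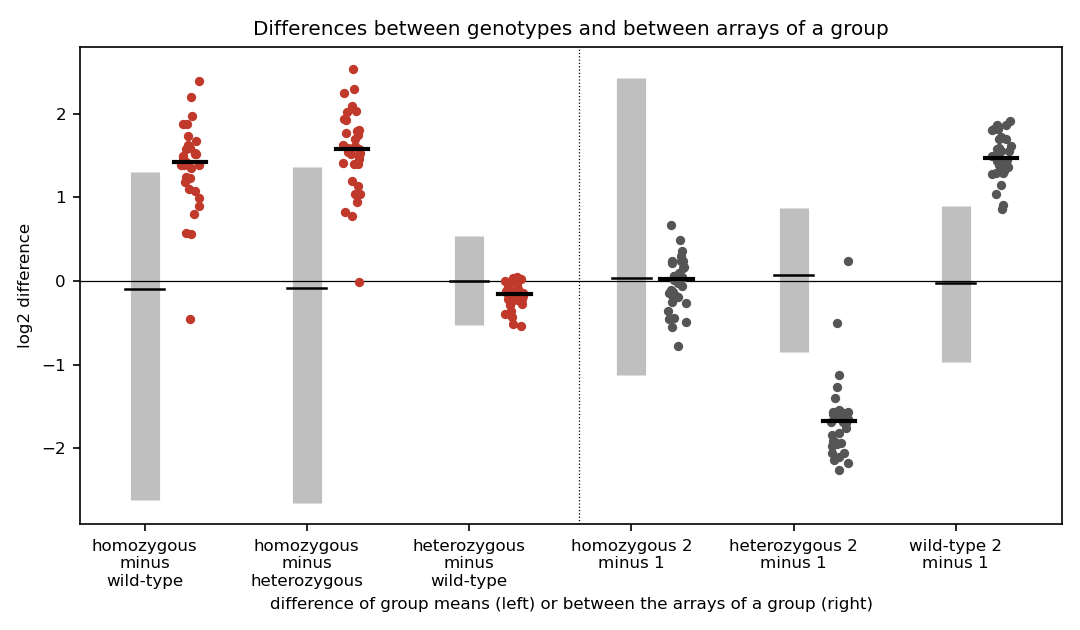
Log2 differences of 34 mitosis genes (points, with a thick line at their median) between group means (left, red) and between the arrays of a group (right, grey), beside the middle 90% of all tested genes (grey bar, with a line at the median). The points for heterozygous and wild-type array pairs lie as far from 0 as those of the comparisons with homozygous cells, on opposite sides because the higher array is number 1 in one pair and number 2 in the other.

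Although no gene passed the test, the homozygous arrays mostly stood above every other array. Both homozygous arrays lay above all 4 other arrays for 30 of 34 genes, against 23.4% of all tested genes. The lower homozygous array was at least 1.5-fold above the highest other array for 13 genes, against 6.75% of all. It was at least 2-fold above that array for 4 genes, a level at which the share of all tested genes was not computed. This margin, measured against the high heterozygous and wild-type arrays, orders the genes differently from an average over a group, and the genes are described below with it.

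**Figure D4:**
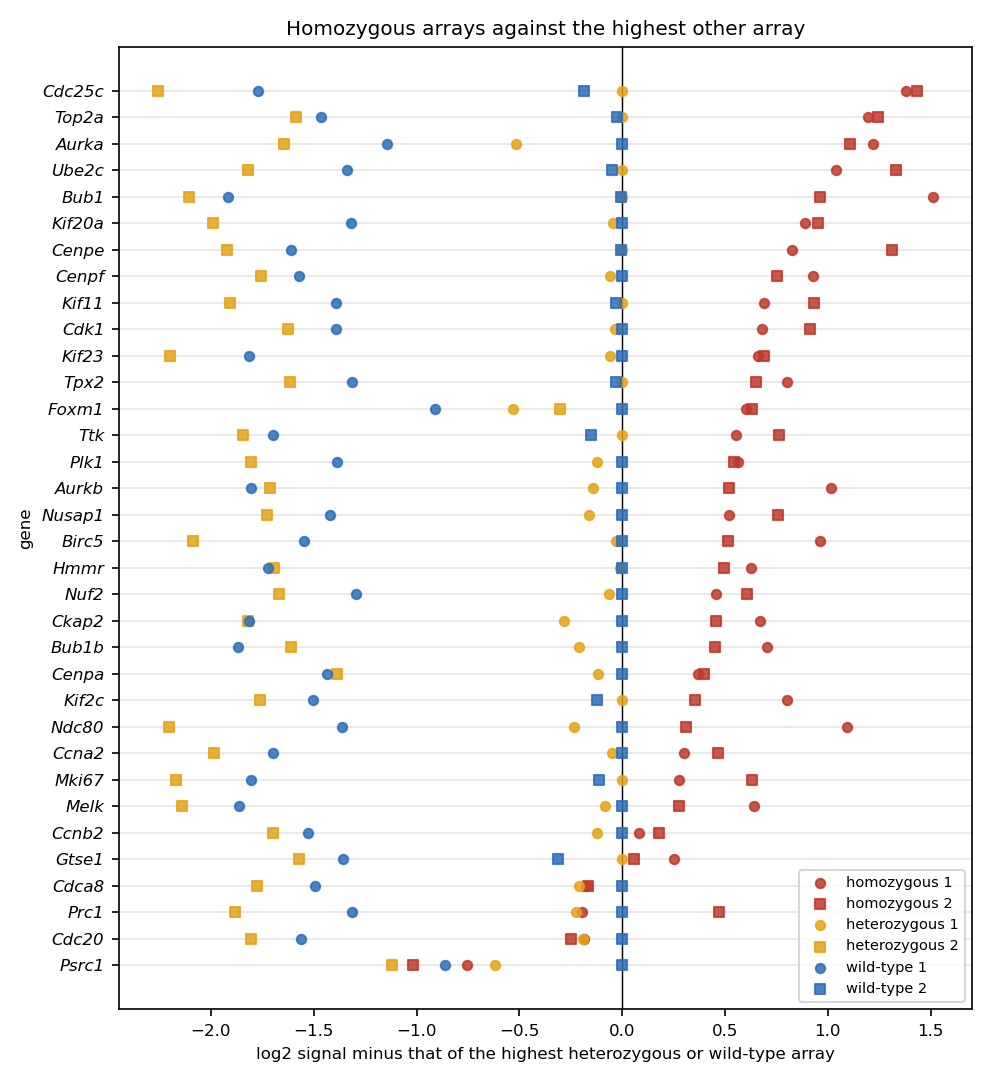
Log2 signal of each gene in each array minus that of the gene's highest heterozygous or wild-type array, with genes sorted by the lower homozygous array. Cdc25c, Top2a, Aurka and Ube2c have both homozygous arrays more than 1 unit to the right of 0, and Cdca8, Prc1, Cdc20 and Psrc1 have at least 1 homozygous array to the left of it.

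The cyclins, CDK1 and its phosphatase control entry into mitosis. Cdc25c, which encodes the phosphatase that activates CDK1 at mitotic entry, had signals of 995 and 1035 in the homozygous, 382 and 79.9 in the heterozygous and 112 and 336 in the wild-type arrays. Its lower homozygous array was 2.60-fold above the highest other array, the widest margin of the list, and its log2 fold change against wild-type cells was 2.39 ± 0.88 (SE), with an adjusted p of 0.155 by limma. Cdk1, the kinase that drives entry into mitosis, had signals of 8151 and 9595 in the homozygous, 4973 and 1647 in the heterozygous and 1942 and 5089 in the wild-type arrays, with a margin of 1.60-fold. Cyclins stood closer together. Ccna2, cyclin A2, which partners CDK2 and CDK1 from S phase on, had signals of 7051 and 7897 in the homozygous, 5528 and 1445 in the heterozygous and 1759.6 and 5716 in the wild-type arrays. Ccnb2, cyclin B2, a partner of CDK1, had 4470.0 and 4783 in the homozygous, 3885 and 1302 in the heterozygous and 1463 and 4222 in the wild-type arrays, so that the homozygous arrays exceeded wild-type array 2 by little (1.06-fold for the lower). The log2 fold change of Ccnb2 against wild-type cells was 0.90 ± 0.71, and wild-type array 1 alone of the wild-type pair lay far below the homozygous arrays.

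The 6 mitotic kinases all had both homozygous arrays above the other 4, with a median log2 fold change against wild-type cells of 1.63. Aurka, the kinase of centrosome maturation and spindle assembly, had signals of 3332 and 3081 in the homozygous, 999 and 457 in the heterozygous and 647 and 1430.1 in the wild-type arrays. It had the smallest p of the list in both comparisons with homozygous cells, a log2 fold change of 1.74 ± 0.54 against wild-type and 2.25 ± 0.54 against heterozygous cells, and a margin of 2.15-fold. Bub1, a checkpoint kinase of the kinetochore, had signals of 7116 and 4864 in the homozygous, 2494 and 579.6 in the heterozygous and 661 and 2487 in the wild-type arrays, and differed 3.76-fold between the wild-type arrays. Its homozygous arrays were apart by 1.46-fold.

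Aurkb, the kinase of the chromosomal passenger complex, which corrects attachments of chromosomes to the spindle, had signals of 2274 and 1614 in the homozygous, 1019 and 344 in the heterozygous and 321 and 1125 in the wild-type arrays. Plk1, a kinase of mitotic entry and cytokinesis, had 2208 and 2176 in the homozygous, 1372 and 427 in the heterozygous and 571 and 1493 in the wild-type arrays, with homozygous arrays that hardly differed. Ttk, the kinase MPS1 that starts the spindle checkpoint, had 1606 and 1856 in the homozygous, 1094 and 305 in the heterozygous and 337 and 986 in the wild-type arrays. In all 3 the lower homozygous array was between 1.44-fold and 1.47-fold above the highest other array, and the heterozygous arrays differed at least 2.97-fold. Melk, a kinase of dividing cells, had 2272 and 1763 in the homozygous, 1373 and 330.3 in the heterozygous and 401 and 1456 in the wild-type arrays and a margin of only 1.21-fold.

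Genes of the spindle checkpoint and of anaphase promotion differed among themselves. Ube2c, the ubiquitin-conjugating enzyme of the anaphase-promoting complex, had signals of 11923 and 14612 in the homozygous, 5805 and 1644 in the heterozygous and 2293 and 5613 in the wild-type arrays. Its margin was 2.05-fold and its log2 fold change against wild-type cells 1.88 ± 0.72 (adjusted p 0.167 by limma). Cdc20, which activates the same complex, had 12828 and 12258 in the homozygous, 12782 and 4166 in the heterozygous and 4941 and 14581 in the wild-type arrays. Here the homozygous arrays lay under wild-type array 2 and on either side of heterozygous array 1, so Cdc20 did not show the margin that Ube2c did. Bub1b, the checkpoint protein BUBR1 that inhibits this complex, had 2656 and 2229.5 in the homozygous, 1406 and 533 in the heterozygous and 446 and 1629 in the wild-type arrays, with both homozygous arrays the highest.

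The passenger complex corrects and guards attachments of chromosomes. Birc5, survivin, a subunit of it, had signals of 5702 and 4170.5 in the homozygous, 2860.2 and 688 in the heterozygous and 998 and 2922 in the wild-type arrays, with a margin of 1.43-fold. Cdca8, borealin, its partner in the complex, had 5758 and 5800.3 in the homozygous, 5629.7 and 1899.8 in the heterozygous and 2309 and 6512 in the wild-type arrays. The homozygous arrays of Cdca8 were nearly equal and lay under wild-type array 2 and just above heterozygous array 1, and its log2 fold change of 0.58 ± 0.70 against wild-type cells was under its own error. Without wild-type array 1 that difference was -0.17. The other probe sets of Cdca8 gave a different order and are described further on.

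The 5 genes of the centromere and kinetochore all had both homozygous arrays above the other 4, with log2 fold changes against wild-type cells between 1.10 and 1.88. Cenpe, a kinesin that carries chromosomes to the spindle equator, had signals of 1366 and 1918 in the homozygous, 771 and 204 in the heterozygous and 252 and 769 in the wild-type arrays. Cenpf, a large kinetochore protein of G2 and mitosis, had 2554 and 2259 in the homozygous, 1289 and 397 in the heterozygous and 451 and 1342 in the wild-type arrays. Cenpa, the histone variant that marks centromeres, had 4968 and 5068 in the homozygous, 3542 and 1469 in the heterozygous and 1423 and 3845 in the wild-type arrays, with homozygous arrays that agreed within 1.02-fold. Ndc80 and Nuf2, subunits of the complex that grips microtubules, behaved unalike in the homozygous pair. Ndc80 had 1405 and 818 in the homozygous, 559 and 143 in the heterozygous and 256 and 659 in the wild-type arrays, the widest homozygous pair of the list (1.72-fold), and Nuf2 had 2789.7 and 3094 in the homozygous, 1941 and 639.6 in the heterozygous and 828 and 2031 in the wild-type arrays.

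The 4 kinesins, motor proteins of the spindle, all had both homozygous arrays above the other 4, with margins between 1.28-fold and 1.85-fold. Kif20a, a motor of cytokinesis, had signals of 3323 and 3474 in the homozygous, 1739 and 452 in the heterozygous and 719 and 1795 in the wild-type arrays. Kif11, the motor Eg5 that separates the spindle poles, had 2247 and 2659 in the homozygous, 1393 and 371 in the heterozygous and 530.4 and 1363 in the wild-type arrays. Kif23, a motor of the central spindle, had 2751 and 2803 in the homozygous, 1668 and 378 in the heterozygous and 494 and 1739 in the wild-type arrays. Homozygous arrays of these 3 motors lay close together. Kif2c, which takes microtubules apart at kinetochores, had 3594 and 2634 in the homozygous, 2063 and 608 in the heterozygous and 727 and 1895 in the wild-type arrays. Heterozygous array 2 was the lowest in each of these 4 genes, and the heterozygous pair differed between 3.39-fold and 4.41-fold.

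Of the 7 spindle microtubule proteins, 5 had both homozygous arrays above the other 4. Tpx2, which activates Aurora A on the spindle, had signals of 2758 and 2487 in the homozygous, 1584 and 516 in the heterozygous and 638 and 1552 in the wild-type arrays. Nusap1, a spindle protein that binds microtubules, had 3741 and 4416 in the homozygous, 2333 and 789 in the heterozygous and 975 and 2607 in the wild-type arrays. Both were highest in the homozygous arrays. Hmmr, a spindle protein and hyaluronan receptor, had 5514 and 5036 in the homozygous, 3548 and 1103 in the heterozygous and 1081 and 3572 in the wild-type arrays. Ckap2, a spindle protein, had 4419.9 and 3804 in the homozygous, 2284 and 787 in the heterozygous and 789 and 2775 in the wild-type arrays. In these 4 genes both homozygous arrays were the highest, with margins between 1.37-fold and 1.57-fold. Prc1, which bundles the microtubules of the central spindle, had 3224 and 5105 in the homozygous, 3154 and 1001 in the heterozygous and 1483 and 3688 in the wild-type arrays. Only homozygous array 2 of Prc1 stood above wild-type array 2. Gtse1, a microtubule protein of G2 and mitosis that binds p53, had 322 and 281 in the homozygous, 270.2 and 90.9 in the heterozygous and 105 and 217 in the wild-type arrays, with the homozygous arrays barely above heterozygous array 1.

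Psrc1, a microtubule protein that is a known p53-induced gene in the mouse, was the member that departed most from the others. Its signals were 1566 and 1304 in the homozygous, 1721 and 1217 in the heterozygous and 1452 and 2641 in the wild-type arrays. Wild-type array 2 was the highest array, homozygous array 1 lay between wild-type array 1 and heterozygous array 1, and homozygous array 2 lay between heterozygous array 2 and wild-type array 1. It was the only gene of the 34 with a negative log2 fold change against wild-type cells, -0.45 ± 0.38, which did not pass (adjusted p 0.456 by limma), and its difference from heterozygous cells was -0.018 ± 0.38. The heterozygous pair of Psrc1 differed by 1.41-fold, less than any other member but Foxm1.

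Chromosome proteins and the transcription factor Foxm1 complete the list. Top2a, the topoisomerase that untangles chromosomes, had signals of 12981 and 13450.1 in the homozygous, 5671 and 1887 in the heterozygous and 2053 and 5568 in the wild-type arrays. The homozygous arrays agreed within 1.04-fold, the margin was 2.29-fold, and the log2 fold change was 1.97 ± 0.69 against wild-type (adjusted p 0.145) and 2.01 ± 0.69 against heterozygous cells (adjusted p 0.130, both by limma). Mki67, given above, had a margin of only 1.21-fold. Foxm1, the transcription factor that activates many of these genes, had signals of 397 and 406 in the homozygous, 181 and 212 in the heterozygous and 139 and 262 in the wild-type arrays. It was the only gene in which heterozygous array 2 exceeded array 1, and its log2 fold change against wild-type cells was 1.07 ± 0.36.

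Further probe sets of the same genes gave a check within these arrays. Of the 34 genes 22 had more than 1 probe set, and 28 of 40 further probe sets, of 20 genes, were bright enough to pass the filter on dim genes. The sign of homozygous minus wild-type was that of the chosen probe set in 27 of 28. Wild-type array 2 exceeded array 1 in 27, heterozygous array 1 exceeded array 2 in 26, and both homozygous arrays exceeded all others in 22. Whether both homozygous arrays were above all others differed from the chosen probe set in 6 of 28.

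Whether both homozygous arrays stood above all others changed with the probe set for Cdca8, Prc1, Kif11, Nusap1 and Tpx2, and the size of the difference changed for Foxm1. A further Foxm1 probe set had signals of 584 and 542 in the homozygous, 193 and 59.1 in the heterozygous and 107 and 151 in the wild-type arrays, a log2 difference of 2.15 against wild-type cells, and the order of heterozygous arrays seen in the other genes. Another had 519.9 and 476 in the homozygous, 144 and 59.0 in the heterozygous and 124 and 166 in the wild-type arrays. Both had a wider gap between homozygous and other arrays than the chosen probe set. A further Cdca8 probe set had 3957 and 3937 in the homozygous, 3090.0 and 724 in the heterozygous and 990.0 and 2743 in the wild-type arrays. The other had 905 and 903 in the homozygous, 741 and 222 in the heterozygous and 278 and 667 in the wild-type arrays, and both had the homozygous arrays highest. For Cdc20 a further probe set had 4613 and 4360.0 in the homozygous, 4735 and 1611 in the heterozygous and 1961 and 5300.3 in the wild-type arrays. The other had 773 and 738 in the homozygous, 765 and 215 in the heterozygous and 301 and 775 in the wild-type arrays, and in neither did the homozygous arrays exceed wild-type array 2. A further Prc1 probe set had 2281 and 3636 in the homozygous, 1894 and 599.8 in the heterozygous and 804 and 2207 in the wild-type arrays, with both homozygous arrays above the others, array 1 by little. The margin was lost in dimmer probe sets of 3 genes. A further Kif11 probe set had 146 and 107 in the homozygous, 131 and 24.6 in the heterozygous and 66.9 and 88.3 in the wild-type arrays. A further Nusap1 probe set had 64.8 and 98.8 in the homozygous, 94.8 and 63.3 in the heterozygous and 40.7 and 80.5 in the wild-type arrays. A further Tpx2 probe set had 55.3 and 86.6 in the homozygous, 67.7 and 70.7 in the heterozygous and 68.2 and 87.7 in the wild-type arrays and was the only one of the 28 whose sign of homozygous minus wild-type, -0.16, differed from the chosen one. Other further probe sets of Kif11 and Tpx2 had the homozygous arrays highest. A further Psrc1 probe set had 307 and 255 in the homozygous, 213 and 245 in the heterozygous and 301 and 522 in the wild-type arrays, again highest in wild-type array 2.

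Other genes of mitosis showed the same layout. Of 83 symbols listed for further mitosis genes, such as condensins, kinetochore subunits and kinesins, 78 were tested. Of these, 75 had positive fold changes against wild-type cells, and the median was 1.32. Fam64a and Pimreg, both among the 83, are names of the same gene. Limma called 0 higher and 0 lower in that comparison, and 0 and 0 against heterozygous cells. An unadjusted p under 0.05 was reached by 17 genes against wild-type cells, or 21.8%, and by 22 against heterozygous cells, or 28.2%. Of all tested genes 28.9% and 30.6% reached it, so neither count lay above the background. Wild-type array 2 exceeded array 1 in 78 of 78 and heterozygous array 1 exceeded array 2 in 77. Espl1, separase, which cuts cohesin at anaphase, had signals of 1461 and 1288 in the homozygous, 374 and 116 in the heterozygous and 181 and 351 in the wild-type arrays. Nek2, a centrosomal kinase, had 5032 and 4045 in the homozygous, 1522 and 670.3 in the heterozygous and 586 and 1786 in the wild-type arrays. These 2, with Ncapd2, Ncaph and Kif18a, had the largest differences of the list from wild-type cells. Ncapd2, a subunit of condensin I, had 4425 and 3585 in the homozygous, 1689 and 429 in the heterozygous and 581 and 1479.5 in the wild-type arrays. Ncaph, of the same complex, had 7857 and 5284 in the homozygous, 3187 and 871 in the heterozygous and 987 and 2543 in the wild-type arrays. Kif18a, a motor that damps chromosome movement, had 1386 and 1009 in the homozygous, 569 and 102 in the heterozygous and 149 and 544 in the wild-type arrays. Negative fold changes were seen for 3 genes, Kif22, Ncapg2 and Pttg1, chosen after their values were seen. Pttg1, securin, the inhibitor of separase, had 6615 and 6722 in the homozygous, 8191 and 12795 in the heterozygous and 7039 and 9011 in the wild-type arrays, with its highest value in the heterozygous array that was lowest for the other genes.

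DNA replication genes showed the same order within the heterozygous and wild-type pairs, with heterozygous array 1 higher in 40 and wild-type array 2 in 38 genes, but the homozygous pair differed. Of 43 genes 40 were tested, all 40 with positive fold changes against wild-type cells and a median of 1.22. Limma called 0 of them against wild-type, with 11 at an unadjusted p under 0.05 (27.5%, near the 28.9% of all tested genes). Against heterozygous cells 19 reached an unadjusted p under 0.05 (47.5%, above the 30.6% of all tested genes). There limma called 1 of the 40 higher and 0 lower, against 0.87% and 3.22% of all tested genes. The called gene was Ccne1, cyclin E1, which rose by 1.24 ± 0.22 (adjusted p 0.0495 by limma, just under the threshold). Its signals were 520.1 and 501 in the homozygous, 235 and 199 in the heterozygous and 257 and 252 in the wild-type arrays. Homozygous array 1 exceeded array 2 in 38 of 40 replication genes, with a median absolute log2 difference of 0.68, but in 16 of 34 mitosis genes, with a median absolute difference of 0.20. Gins1, a subunit of the replicative helicase, had 2991 and 941 in the homozygous, 525 and 168 in the heterozygous and 302 and 630.0 in the wild-type arrays. Mcm10, a replication initiation factor, had 1795 and 1024 in the homozygous, 466 and 216 in the heterozygous and 211 and 439 in the wild-type arrays. Orc1, of the origin recognition complex, had 580.3 and 277 in the homozygous, 168 and 59.5 in the heterozygous and 82.8 and 131 in the wild-type arrays. Homozygous array 1 was well above array 2 in these 3. Pole, a replicative polymerase, was an exception in that pair and had 1368 and 1713 in the homozygous, 772 and 157 in the heterozygous and 148 and 577 in the wild-type arrays.

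**Figure D5:**
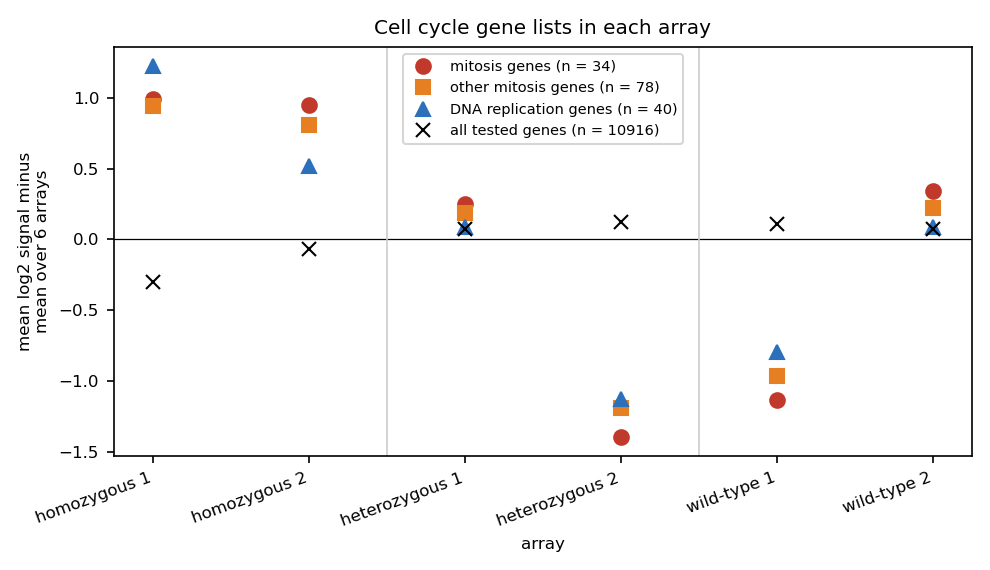
Mean log2 signal of the mitosis, other mitosis and DNA replication genes and of all tested genes (crosses) in each of 6 arrays (horizontal axis), minus the mean over the 6 arrays. The mitosis genes of the homozygous arrays lie at 0.99 and 0.95, the replication genes at 1.23 and 0.52, and heterozygous 2 and wild-type 1 are the lowest for all 3 cell cycle lists.

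Among the regulators of these promoters, 2 of 23 tested genes passed against wild-type cells, 1 higher and 1 lower. Of all tested genes 0.412% were called higher and 2.25% lower. An unadjusted p under 0.05 was reached by 9 of the 23, or 39.1%, against 28.9% of all tested genes. Cdkn1a, which encodes p21, had signals of 192 and 111 in the homozygous, 1548 and 1437 in the heterozygous and 2519 and 2646 in the wild-type arrays and fell by 4.14 ± 0.32 (adjusted p 0.0136 by limma). The arrays of each of the heterozygous and wild-type pairs had close Cdkn1a signals. The part of Cdkn1a in the mitosis signals was not tested. Cdkn2a, the locus of the CDK inhibitor p16 and of p19Arf, an activator of p53, had 8180.2 and 6769 in the homozygous, 492 and 598 in the heterozygous and 639 and 237 in the wild-type arrays and rose by 4.26 ± 0.50 (adjusted p 0.0294 by limma). Mybl2, B-MYB, had 601 and 399.5 in the homozygous, 154 and 88.4 in the heterozygous and 104 and 162 in the wild-type arrays. Lin9, a subunit of MuvB, had 1453 and 1029 in the homozygous, 523 and 276 in the heterozygous and 249 and 461 in the wild-type arrays. Both were highest in the homozygous arrays and did not pass (adjusted p 0.0704 and 0.0885 by limma). The other MuvB subunits of the list did not all do so. Lin54 was highest in the homozygous arrays, with 1422 and 1914, against 1109 and 465 in the heterozygous and 668 and 1201 in the wild-type arrays. Lin37 was lowest in them, with 244.7 and 215.1, against 297.4 and 245.0 in the heterozygous and 308.7 and 292.3 in the wild-type arrays. Lin52, too dim to be tested, was under background in the homozygous arrays (8.76 and 3.38), in heterozygous array 2 (21.5) and in wild-type array 2 (12.2). It was at 57.6 in heterozygous array 1 and 33.1 in wild-type array 1. E2f7, a repressor that acts late in the cycle, had 1244 and 1230.0 in the homozygous, 522 and 176 in the heterozygous and 279.6 and 531 in the wild-type arrays. E2f8, its close relative, had 1617 and 896 in the homozygous, 809 and 165 in the heterozygous and 299 and 864 in the wild-type arrays. E2f1, an activator, had 420.1 and 376 in the homozygous, 271 and 179 in the heterozygous and 213 and 247 in the wild-type arrays. In these 3 genes the homozygous arrays were also the highest, E2f8 by little. Rbl1, p107, had 1724 and 2001 in the homozygous, 1434 and 563 in the heterozygous and 844 and 1452 in the wild-type arrays. Rbl2, p130, an RB-like protein of DREAM, had 384 and 352 in the homozygous, 435 and 514 in the heterozygous and 320.0 and 449 in the wild-type arrays, with groups that overlap. The NF-Y subunit Nfya had 892 and 653 in the homozygous, 609.5 and 839 in the heterozygous and 975 and 633 in the wild-type arrays, and its groups overlap too. Nfyb was highest in the homozygous arrays, with 836 and 798, against 542 and 447 in the heterozygous and 729 and 614 in the wild-type arrays. Nfyc had 1382 and 1237 in the homozygous, 1282 and 1134 in the heterozygous and 2330 and 1468 in the wild-type arrays, which were the highest. With no filter on dim genes, with only the groups compared or with the replicate number as a block, 0 genes in all were called against wild-type cells, the regulators and the markers below among them, while 605 were called with signals raised to background.

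Summed signals of macrophage, endothelial, granulosa and surface epithelium markers were lower in the homozygous arrays than in all others. The fibroblast and smooth muscle sums of the homozygous arrays lay on both sides of those of the other groups. The summed signal of 10 macrophage markers was 293 to 709.8 in the homozygous, 5422 to 5553 in the heterozygous and 2562 to 3085 in the wild-type arrays, and Lyz2 was at 8.98 and 4.02, under background, in the homozygous arrays, against 1199.5 and 999 in the heterozygous and 603 and 577 in the wild-type arrays. Of 8 tested macrophage markers 3 fell against wild-type cells by limma, as did all 3 tested of 7 endothelial markers, Kdr, Icam2 and Esam. For these and the marker counts that follow, the share of all tested genes called lower was 2.25%. The 7 endothelial markers summed to 1889 to 2722 in the homozygous, 9079.6 to 10337 in the heterozygous and 10426 to 10858 in the wild-type arrays, and Pecam1, Cdh5 and Tie1, which define that cell type, lay between 0.650 and 55.8 in all arrays. The 7 measured granulosa markers summed to 613 to 3369 in the homozygous, 7822 to 9985 in the heterozygous and 9761 to 12047 in the wild-type arrays, with 0 of 4 tested called. The 12 surface epithelium markers summed to 48124 to 54632 in the homozygous, 118742 to 152569 in the heterozygous and 133289 to 171991 in the wild-type arrays, with 2 of 12 called lower, Upk1b and Epcam. The 7 fibroblast markers summed to 22863 to 88147 in the homozygous, 44892 to 57851 in the heterozygous and 47325 to 64718 in the wild-type arrays, with 1 of 7 called lower, Pdgfra, and the 5 smooth muscle markers to 11677 to 46941 in the homozygous, 31127 to 33591 in the heterozygous and 21072 to 33629.8 in the wild-type arrays, with 0 of 4 tested called. Lymphocyte markers were at or under background in all arrays for 2 of 5. The part of these cell types in the mitosis signals was not tested. By array, the fibroblast sums were 22863 and 88147, and the smooth muscle sums 11677 and 46941, in homozygous arrays 1 and 2. The macrophage sums were 5422 and 5553 in heterozygous arrays 1 and 2, and 3085 and 2562 in wild-type arrays 1 and 2.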

How the data were processed

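Total RNA labelled by the standard Affymetrix procedure was hybridised to 6 single-colour arrays, per the labels. The deposited values are linear probe set intensities. The submitters' processing notes name RMA, with no version given in the sources used here, but the intensities have different quantiles in each array and a mean of 500.0 over the middle 96% of each array's probe sets, as MAS 5.0 signals have. Deposited intensities were log2-transformed without an offset and without further normalisation. The platform annotation gave gene symbols, updated by Entrez identifier through a RefSeq table of GRCm38.p6. Of 45101, 34958 named 1 symbol, 932 several and 9211 none, and only the first were used (34754 matched by identifier). The probe set with the highest mean represented a gene, and genes at or above the 40th percentile of the mean, a geometric mean signal of 60.2, were tested (10916 of 18194).

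Group means were fitted to all 6 arrays with limma 3.58.1 in R 4.3.3, with no covariate, 3 residual and 2.26 prior degrees of freedom and empirical Bayes moderation. A gene counted as called at an adjusted p under 0.05 (Benjamini-Hochberg, over all tested genes). Errors of log2 fold changes are limma standard errors. Arrays give no count depth, and their number limits the precision. The members, gene lists and tests were chosen with earlier results of these data known. All members could be named, and up to 5 genes of each context list, called ones first and then by size of change against wild-type cells, besides cell cycle regulators. Cell type markers did not all follow this order, such as Upk3b and Krt18. Alternatives were other normalisations, filters, probe set rules, spreads, a replicate block and leaving out each array. The fit was tested on simulated data. Plots came from matplotlib 3.10.9 under Python 3.11.15.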

Additional observations from a re-analysis of the deposited data

How the results depend on the processing

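No member was called in any of the 3 comparisons under any alternative tried. Their fold changes in both comparisons with homozygous cells kept their direction and their side of the threshold in 1074 of 1082 values. Many of these values could not change direction. Filters, spreads, the replicate block and leaving out an array of the third group do not alter a member's fold change. Raising signals to background does not either, as all members exceeded it. In these alternatives only the side of the threshold could change. The 8 that turned were small. With Cdc20 against wild-type the value was -0.22 without wild-type array 1, the lowest of a range up to 1.34, and against heterozygous cells -0.028 without heterozygous array 2, in a range up to 1.59. Cdca8 against wild-type cells ranged between -0.17 and 1.32 with 1 array left out. Psrc1 against heterozygous cells ranged between -0.27 and 0.23, and was 0.21 with median-centred arrays and 0.15 with the mean of all probe sets, where Cenpa was at -0.15. The cause of these turns was not tested beyond the arrays or probe sets left out or added.

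The count of all genes called changed widely. Against wild-type cells, 291 in the fit reported became 605 with signals raised to background, 190 with the mean of all probe sets, 571 with a trended prior and 0 with no filter, with only the groups compared or with the replicate block, and between 0 and 2663 with 1 array left out. Against heterozygous cells, 446 became 731, 281, 690, 17 (no filter), 9 (only the groups compared), 293 (group variance weights) and 19 (replicate block), and between 0 and 2841 with 1 array left out. Between heterozygous and wild-type cells 0 were called under every alternative, with 71 at an unadjusted p under 0.05 in the fit reported and between 26 and 593 under the alternatives. With 1 array left out the members' median lay between 0.66 and 2.22 for homozygous minus wild-type, 0.75 and 2.40 for homozygous minus heterozygous, and -1.02 and 0.70 for heterozygous minus wild-type. Centring arrays on their medians raised the members' medians to 1.73 against wild-type and 1.80 against heterozygous cells. With the filter at the 60th percentile 31 members were left, and the signals raised to background, the filter and the trended prior also moved the split of calls, to 126 higher and 479 lower, 152 higher and 279 lower and 158 higher and 413 lower against wild-type cells, from 45 higher and 246 lower.

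The labels do not say that replicate numbers mark a shared litter or day. Deviations of same-numbered arrays correlated over all tested genes at -0.30 for heterozygous and wild-type, 0.16 for homozygous and heterozygous and -0.10 for homozygous and wild-type arrays. Pairing heterozygous and wild-type arrays crosswise, chosen after seeing the data, called 0 genes, with 515 at an unadjusted p under 0.05. With 2 arrays a group and signals without count depth, smaller differences than the spread within the heterozygous and wild-type pairs cannot be resolved.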

Other observations

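Genes outside the cell cycle lists also separated both pairs. The genes named here were chosen after their values were seen, as the 5 in each direction whose smaller log2 difference of the heterozygous and the wild-type pair was largest. Ticrr in heterozygous array 2 and wild-type array 1 lay under the background level of 24.5, as did Col11a1 in heterozygous array 2. Car3 and Defb42 lay under it in homozygous array 1. Differences that rest on these values are uncertain in size. In the direction of the mitosis genes, Ticrr, which helps to fire replication origins, had signals of 324 and 252 in the homozygous, 124 and 7.65 in the heterozygous and 12.8 and 133 in the wild-type arrays. Esco2, a cohesin acetyltransferase, had 799 and 616 in the homozygous, 573 and 112 in the heterozygous and 133 and 489 in the wild-type arrays. Fanci, of the Fanconi anaemia repair pathway, had 564 and 319 in the homozygous, 252 and 39.7 in the heterozygous and 73.1 and 246 in the wild-type arrays. These 3 were highest in the homozygous arrays. Col11a1, a fibrillar collagen, had 1222 and 65.0 in the homozygous, 79.6 and 21.6 in the heterozygous and 31.9 and 148 in the wild-type arrays, with only homozygous array 1 above the others. D17H6S56E-5 had 2423 and 2238 in the homozygous, 2944 and 913 in the heterozygous and 932 and 3532 in the wild-type arrays, with wild-type array 2 and heterozygous array 1 the highest.

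In the opposite direction, higher in heterozygous array 2 and wild-type array 1, Car3, a carbonic anhydrase, had signals of 1.23 and 237 in the homozygous, 33.4 and 199 in the heterozygous and 661 and 82.6 in the wild-type arrays. Defb42, a defensin, had 3.99 and 136 in the homozygous, 178 and 1322 in the heterozygous and 908 and 172.5 in the wild-type arrays. Myl7, a myosin light chain, had 55.1 and 317.3 in the homozygous, 286 and 1446 in the heterozygous and 1504 and 158 in the wild-type arrays. All 3 were lower in homozygous array 1 than in any other array. Islr, a secreted protein, had 69.5 and 2258 in the homozygous, 250.4 and 1067 in the heterozygous and 1369.9 and 284 in the wild-type arrays. Malat1, a nuclear noncoding RNA, had 3041 and 18765 in the homozygous, 4360.0 and 15521 in the heterozygous and 19233 and 2969.8 in the wild-type arrays. Islr and Malat1 were high in homozygous array 2 and low in homozygous array 1, arrays in which the mitosis genes were close.

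Over the 10882 tested genes outside the list, wild-type array 2 minus array 1 and heterozygous array 1 minus array 2 correlated at r = 0.29. This describes genes of 4 arrays, and genes are not independent replicates.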
